A study of Mus musculus with 4 samples.

Results

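Genes that mark arterial or venous endothelium were read in endothelial cells (ECs) of the dura mater and of the brain parenchyma. The members were 8 of the 23282 entries of the count tables, found by their gene symbol. Gja4, Gja5, Gja1, Bmx and Stmn2 were taken as the 5 arterial genes, and Nr2f2, Lrg1 and Ackr1 as the 3 venous genes. Of these, 7 passed the filter on low counts and were tested, and Gja5 was not.

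The comparison asks how ECs of these 2 tissues differ in their transcripts. Both groups came from C57BL/6J mice at 8 weeks of age, for which the labels give no treatment, with 2 libraries of brain ECs and 2 of dura mater ECs, and the sources used here do not say how many animals went into a library. Cells carrying CD31 and lacking CD45 and TER-119 were sorted by flow cytometry, and brain ECs had first been enriched on magnetic beads. Libraries came from a QuantSeq kit, in which reads start near transcript 3′ ends. They held from 13518973 to 16096203 counts.

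Arteries and veins are lined by ECs that differ in gene expression. Notch signaling and SOX factors favour the arterial state, and the nuclear receptor COUP-TFII, the product of Nr2f2, maintains the venous state in part by holding Notch signaling down. Gap junctions built from connexins couple arterial ECs to each other and to smooth muscle. Postcapillary venules are the usual site at which leukocytes leave the blood, and Ackr1 presents chemokines there. In the brain, arterial and venous markers change gradually along each vessel, with capillary ECs in between carrying the transporters of the blood-brain barrier.

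The promoters of the 3 members with the largest log2 fold change between the tissues are shown. They were picked by the size of that value, and only Lrg1 of the 3 passed the threshold in edgeR. Sequences are from RefSeq, build GRCm38.p6, where 7 of the 8 members had an entry. Each runs 5′ to 3′ on the strand of its gene and ends at or before the annotated start. Capitals mark letters that matched a searched motif. The window of Lrg1 lies at chr17:56122002-56122196 (minus strand), that of Nr2f2 at chr7:70366747-70366996 (minus strand) and that of Gja1 at chr10:56377050-56377299 (plus strand).
Lrg1: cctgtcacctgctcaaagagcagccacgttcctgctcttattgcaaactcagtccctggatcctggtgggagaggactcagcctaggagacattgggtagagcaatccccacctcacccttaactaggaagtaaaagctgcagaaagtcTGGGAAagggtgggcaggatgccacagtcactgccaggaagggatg
Nr2f2: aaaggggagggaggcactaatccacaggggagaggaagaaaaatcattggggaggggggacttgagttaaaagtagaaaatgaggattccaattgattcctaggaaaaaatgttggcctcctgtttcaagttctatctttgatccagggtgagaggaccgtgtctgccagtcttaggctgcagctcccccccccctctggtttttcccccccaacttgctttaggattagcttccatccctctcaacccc
Gja1: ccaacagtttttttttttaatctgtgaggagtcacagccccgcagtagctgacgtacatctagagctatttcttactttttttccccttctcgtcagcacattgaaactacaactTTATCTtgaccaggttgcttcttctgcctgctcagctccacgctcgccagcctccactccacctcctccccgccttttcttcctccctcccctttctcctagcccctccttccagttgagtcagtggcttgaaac

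The motifs searched on both strands, over the 250 bases before the RefSeq start, were those of RBPJ, the DNA-binding partner of Notch (TGGGAA), and of STAT factors (TTCNNNGAA). The letters AGATAA were taken for GATA factors and TATAAA for the TATA box. For SOX factors the search used ACAATG, and for ETS factors it used CCGGAA. Lrg1 held TGGGAA, and so did Bmx and Ackr1, making 3 of the 7 members, while 21.6% of 32851 promoter windows held it. Gja1 held AGATAA on the opposite strand, a motif present in 9.99% of windows. The other 4 motifs were found in none of the 7, against 7.02% of all windows for the STAT motif, 12.4% for the TATA box, 10.7% for SOX and 12.0% for ETS. These are matches of letters only.

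The spread between libraries of the same tissue was wide. Pearson's r of log CPM (the count scaled to the size of its library, with TMM factors) across the 9347 genes tested, which are not independent replicates, was 0.473 between brain replicates and 0.594 between dura mater replicates, and between tissues it ran from 0.324 to 0.510. As the label of endothelial cells requires, each of 10 endothelial markers had more than 7 counts in each library. Their summed level was 9448 and 11082 CPM in brain ECs versus 8538 and 10057 CPM in dura mater ECs. Single markers shifted both ways, with 6 positive and 4 negative log2 fold changes of dura mater over brain ECs. At an adjusted p under 0.05 in edgeR, 1 of them, Cldn5, was lower in dura mater ECs (log2 fold change −2.52) and 0 were higher. The labels do not say whether libraries came from separate animals, so the p-values below measure the spread between these libraries, which may be technical.

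All 3 venous genes had higher values in both dura mater libraries than in either brain library, as did 26.2% of all genes tested. Of the 3, 1 (Lrg1) rose by the test across all genes, where 0.428% of all genes did. In bulk RNA, more cells of a type and more RNA per cell cannot be told apart, so these values do not separate a larger share of venous ECs from a higher level in each. Lrg1 (chromosome 17, 56119678 to 56122001, minus strand, GRCm38) encodes a secreted leucine-rich glycoprotein that modulates TGF-beta signaling in ECs. It was counted 1419 and 960 times in the brain libraries versus 22023 and 37171 times in the dura mater libraries, which is 97.0 and 71.9 CPM against 1628 and 2257 CPM. The lower dura mater library was 16.8-fold above the higher brain library. The means were 84.5 ± 17.8 and 1942 ± 445 CPM (SD, n = 2), a 23.0-fold difference. Its log2 fold change was 4.52 (SE 0.40, edgeR adjusted p = 0.0232), and it passed in each of 16 alternative analyses with values from 4.25 to 4.70.

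Nr2f2 (chromosome 7, 70351944 to 70366735, minus strand) encodes COUP-TFII, which is also present in lymphatic ECs and in stromal cells. Its 219 and 567 counts in brain ECs stood against 2316 and 4224 in dura mater ECs, or 15.0 and 42.5 CPM against 171 and 256 CPM. The groups lay 4.03-fold apart at their nearest libraries, while the brain libraries differed from each other by 2.82-fold (gaps between replicates are from log2 CPM with the prior count of 2). The means were 28.7 ± 19.5 and 214 ± 60.3 CPM (SD, n = 2), and the log2 fold change was 2.89 (SE 0.83). It missed the threshold in edgeR (adjusted p = 0.334) and passed it narrowly in DESeq2 (adjusted p = 0.0465), where 6.9% of genes were called higher. It also passed without brain replicate 2 (log2 fold change 3.75, edgeR adjusted p = 0.000828), a fit in which the lone brain library is assumed to vary like the dura mater ones. With any other library left out it missed the threshold, at 2.27 to 3.01. An antisense transcript, B130024G19Rik, covers 7.455% of the exon length of Nr2f2. It had 226 counts in dura mater replicate 2 and 0 in the other libraries, and no source used here says whether the counting used strand.

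Ackr1 (chromosome 1, 173331886 to 173333750, minus strand) encodes an atypical chemokine receptor of venules, also known as the Duffy antigen of red cells. It was counted 2824 and 1065 times in brain ECs versus 6650 and 3912 times in dura mater ECs, which gave 193 and 79.8 CPM against 492 and 238 CPM. The libraries of each tissue differed by more than 2-fold, and the lower dura mater library stood 1.23-fold above the higher brain library. The log2 fold change was 1.42 (SE 0.64), short of the threshold (edgeR adjusted p = 0.480). Without brain replicate 1 it was 2.16 and passed, though the lone brain library is then assumed to vary like the dura mater ones. It missed the threshold at 0.66 without dura mater replicate 1 (edgeR adjusted p = 1.00) and at 0.87 without brain replicate 2 (edgeR adjusted p = 0.546). A gene on the same strand, Cadm3, shares 25.69% of the exon length of Ackr1, so counts between them are uncertain. Cadm3 had 0, 384, 27 and 362 counts in brain replicates 1 and 2 and dura mater replicates 1 and 2.

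**Figure D1:**
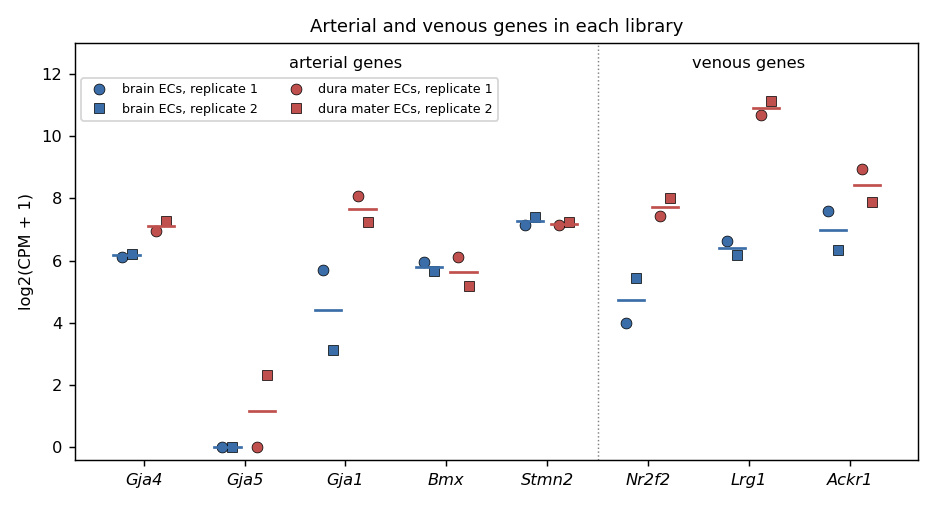
Level of each of the 8 genes, as log2(CPM + 1), in brain ECs (blue) and dura mater ECs (red); circles are replicate 1, squares replicate 2 and bars the mean of the 2 log values. Lrg1 reaches 1628 and 2257 CPM in dura mater ECs, Bmx and Stmn2 overlap between the tissues, and Gja5 is at 0 CPM in 3 of the 4 libraries.

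The arterial genes did not move as one group. None of the 4 tested passed the threshold in edgeR (1 at an unadjusted p under 0.05, Gja1, and 0 in DESeq2), and their log2 fold changes ran from −0.09 to 2.83. The 3 arterial connexins differed among themselves. Gja4 (connexin 37, chromosome 4, 127311421 to 127314039, minus strand) is found in arterial ECs of most organs. Its counts were 997 and 985 in brain ECs versus 1646 and 2511 in dura mater ECs, or 68.2 and 73.8 CPM against 122 and 152 CPM. Both dura mater libraries were therefore above both brain libraries, by 1.65-fold at the nearest. The means were 71.0 ± 3.98 and 137 ± 21.8 CPM (SD, n = 2). The log2 fold change was 0.95 (SE 0.71, edgeR adjusted p = 0.851).

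Gja5 (connexin 40, chromosome 3, 96904693 to 97077416, plus strand) is a classic marker of large-artery ECs. It had 0 counts in both brain libraries and in dura mater replicate 1, and 67 counts (4.07 CPM) in dura mater replicate 2. A count of 0 allows up to 3 counts, which is 0.205 and 0.225 CPM in the brain libraries, and 0.222 CPM in dura mater replicate 1. These limits and the other intervals given here cover counting error only. Gja5 was therefore seen in 1 library of 4 and failed the low-count filter. It was fitted under 4 alternatives and called in none, with log2 fold changes from 3.93 with no filter (edgeR adjusted p = 0.793) to 4.88 without dura mater replicate 1 (edgeR adjusted p = 0.771). These values depend on the prior count and are no bounds. Gpr89, which covers 2.872% of its exon length on the opposite strand, had 0 counts in each library.

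Gja1 (connexin 43, chromosome 10, 56377330 to 56402513, plus strand) joins ECs, smooth muscle, fibroblasts and astrocytes. It was counted 743 and 103 times in brain ECs versus 3641 and 2460 times in dura mater ECs, or 50.8 and 7.72 CPM against 269 and 149 CPM. The brain libraries differed from each other by 2.70 on the log2 CPM scale, nearly as far as the tissues in the fit. The lower dura mater library was still 2.94-fold above the higher brain library. The log2 fold change of 2.83 (SE 1.06) missed the threshold (edgeR adjusted p = 0.466). Without brain replicate 1 it was 4.70 and passed, though the lone brain library is then assumed to vary like the dura mater ones. It missed the threshold at 1.99 without brain replicate 2 (edgeR adjusted p = 0.114) and at 2.21 without dura mater replicate 1 (edgeR adjusted p = 0.796).

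Bmx (chromosome X, 164192842 to 164258193, minus strand), a Tec-family tyrosine kinase of arterial ECs, was counted 889 and 659 times in brain ECs versus 922 and 577 times in dura mater ECs. The levels were 60.8 and 49.4 CPM against 68.1 and 35.0 CPM, with the brain libraries between the dura mater libraries. The log2 fold change was −0.09 (SE 1.22, edgeR adjusted p = 1.00), and its sign turned under 4 of 16 alternatives, upper-quartile and pan-endothelial scaling among them. Stmn2 (chromosome 3, 8509360 to 8561606, plus strand) encodes a stathmin that binds tubulin. It is best known from neurons and is also an arterial gene of brain ECs. Its 2042 and 2239 counts in brain ECs stood beside 1887 and 2473 in dura mater ECs, or 140 and 168 CPM beside 139 and 150 CPM. The 4 libraries thus lay close together. The log2 fold change was −0.09 (SE 0.55, edgeR adjusted p = 1.00), and its sign turned under the same 2 scalings.

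Of the 7 members tested, 1 (Lrg1) was called higher and 0 lower at an adjusted p under 0.05 in edgeR. Over all 9347 genes tested, 0.61% were called, 0.428% as higher and 0.182% as lower. At an unadjusted p under 0.05, 3 members (Lrg1, Nr2f2 and Gja1) were higher and 0 lower, where 7.04% of all genes were higher and 2.97% lower. For 5 members the tissues stood apart without overlap, each higher in dura mater ECs (Lrg1, Nr2f2, Gja1, Ackr1 and Gja4), whereas 26.2% of all genes were higher without overlap and 16.9% lower. The median log2 fold change was 0.43 for the 4 arterial genes tested and 2.89 for the 3 venous genes, beside −0.01 for all genes tested. With 2 libraries against 2, an exact permutation test of a single gene (two-sided) cannot give a p below 0.333, so none is quoted.

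**Figure D2:**
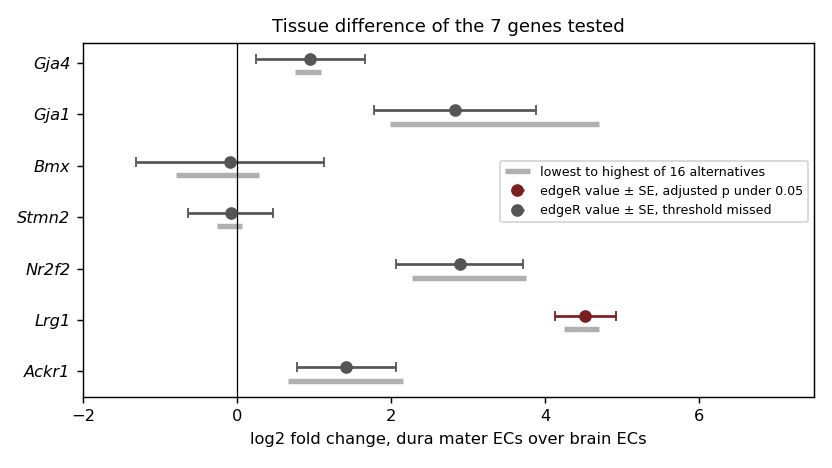
Log2 fold change of dura mater ECs over brain ECs for the 7 members tested, with an approximate standard error derived from the edgeR test statistic (points and bars) and the range over 16 alternative analyses (grey). Lrg1 lies at 4.52 with the shortest bar, Nr2f2 at 2.89 and Gja1 at 2.83, Ackr1 at 1.42 and Gja4 at 0.95, while Bmx and Stmn2 straddle 0.

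The members differed in how well the replicates of a tissue matched. For the median of all genes tested, the libraries of a tissue were 2.69-fold apart for the brain and 2.20-fold apart for the dura mater, on the same log2 CPM scale. Stmn2 was steadier than that, at 1.20-fold and 1.08-fold, and so was Gja4 at 1.08-fold and 1.25-fold. Lrg1 replicates were 1.35-fold and 1.39-fold apart. Of all genes tested, 20.8% had a smaller gap in the brain and 25.2% in the dura mater. Bmx had a narrow gap in brain ECs (1.23-fold) and a wider one in dura mater ECs (1.94-fold). Ackr1 was 2.42-fold apart in the brain and 2.07-fold in the dura mater, near the typical gene of each tissue. Gja1 was the member with the widest gap, 6.49-fold in brain ECs, and 63.4% of all genes had a smaller one.

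**Figure D3:**
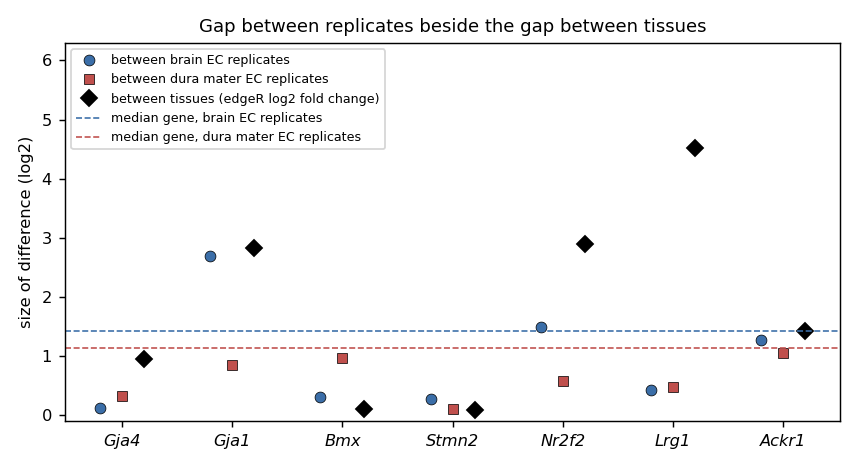
Size of the log2 difference between replicates in brain ECs (circles) and dura mater ECs (squares), beside the size of the log2 fold change between tissues (diamonds), for the 7 members tested; dashed lines give the median gap of all genes tested. For Lrg1 the tissue difference of 4.52 stands far above both replicate gaps, whereas for Gja1 the brain gap of 2.70 is nearly as large as the tissue difference of 2.83.

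The balance of the 2 groups of genes was also read within each library, where the scaling between libraries plays no part. The 5 arterial genes held 4671 of the 9133 counts of the 8 genes in brain replicate 1, a share of 51.1% (95% Wilson interval 50.1 to 52.2). In brain replicate 2 they held 3986 of 6578 counts, or 60.6% (59.4 to 61.8). In the dura mater the shares were lower, at 8096 of 39085 counts or 20.7% (20.3 to 21.1) in replicate 1 and 8088 of 53395 or 15.1% (14.8 to 15.5) in replicate 2. The means were 55.9% ± 6.68 and 17.9% ± 3.94 (SD, n = 2), and the groups did not overlap. Lrg1 made up 31.8% and 37.0% of the venous counts in brain ECs versus 71.1% and 82.0% in dura mater ECs. Without Lrg1 the arterial share was 60.6% and 71.0% in brain ECs versus 47.5% and 49.9% in dura mater ECs, which still did not overlap. Such shares weigh each gene by its count and are not shares of vessels.

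**Figure D4:**
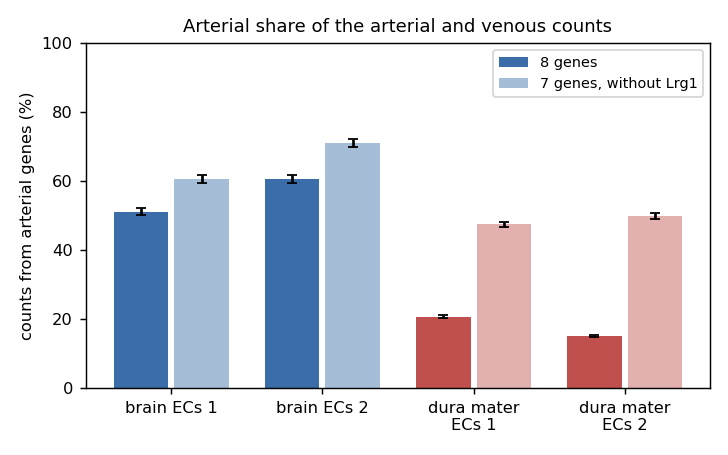
Percentage of the members' counts that came from arterial genes in each library, for all 8 genes (dark bars) and for 7 genes without Lrg1 (pale bars), with 95% Wilson intervals. Brain EC libraries stand at 51.1% and 60.6% and dura mater EC libraries at 20.7% and 15.1%, and the pale bars narrow the gap to 60.6% and 71.0% against 47.5% and 49.9%.

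Other genes of arteries, veins and capillaries were then read in the same fit. Of 20 further arterial genes, 19 were tested, 1 was called higher (Mgp) and 1 lower (Cxcl12), where 0.428% and 0.182% of all genes were. Of the 19, 6 were higher and 7 lower without overlap, beside 26.2% and 16.9% of all genes. The median log2 fold change of the 19 was −0.01. Mgp, an inhibitor of vessel calcification, rose from 2355 ± 220 to 10849 ± 21.8 CPM (SD, n = 2), a log2 fold change of 2.20 (edgeR adjusted p = 0.0248). Cxcl12, a chemokine of arterial and capillary ECs, fell by 2.21 on the log2 scale, from 7928 ± 1689 to 1711 ± 35.3 CPM (edgeR adjusted p = 0.0286). Nrp1, a coreceptor for VEGF-A and semaphorins, just missed the threshold with a log2 fold change of 2.38 (edgeR adjusted p = 0.0544), and its 3576 and 4107 counts in brain ECs stood against 17261 and 26517 in dura mater ECs. Gkn3, an arterial gene of brain vessels, went the other way, with 3884 and 6398 counts against 646 and 595 (log2 fold change −3.15, edgeR adjusted p = 0.109). Efnb2, the ephrin ligand that marks arteries, was counted 0 and 13 times in brain ECs versus 815 and 1418 times in dura mater ECs (edgeR adjusted p = 0.466). Alox12, an arachidonate lipoxygenase, was counted 185 and 166 times in the brain against 802 and 1697 times in the dura mater (edgeR adjusted p = 0.582). Sema3g, a semaphorin of arterial ECs, had 0 counts in each library.

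Of 16 further venous genes, each tested, 13 had a positive log2 fold change, 11 were higher without overlap and 2 lower without overlap, and the median was 1.15. Over all genes tested, 49.8% were positive, 26.2% higher without overlap and 16.9% lower without overlap. Selp and Icam1 were called higher, where 0.428% of all genes were, and 0 genes were called lower. Selp (P-selectin), which catches leukocytes on venules, was at 0 counts in each brain library, with 22187 and 9995 in the dura mater libraries (edgeR adjusted p = 0.0232). Its fitted log2 fold change, the topmost point in the plot of gene lists, depends on the prior count and is no bound. Icam1, a ligand of leukocyte integrins, rose from 57.0 ± 12.3 to 1421 ± 637 CPM (SD, n = 2), a log2 fold change of 4.64 (edgeR adjusted p = 0.0248). Antisense transcripts cover 9.925% and 4.215% of the exon length of Selp and 11.72% of that of Icam1. Nrp2, a semaphorin receptor of veins and lymphatics, was counted 19 and 461 times in the brain against 5740 and 10427 times in the dura mater (edgeR adjusted p = 0.344). Aplnr, the apelin receptor, was at 0 counts in each brain library, with 317 and 341 in the dura mater libraries (edgeR adjusted p = 0.466). Ch25h, which hydroxylates cholesterol, was counted 259 and 6 times in the brain against 939 and 1750 times in the dura mater (edgeR adjusted p = 0.676). Slc38a5, an amino acid transporter of brain venules and capillaries, was the reverse, with 4159 and 2754 counts against 174 and 589 (log2 fold change −3.33, edgeR adjusted p = 0.236).

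Capillary genes, transporters of the blood-brain barrier among them, had a median log2 fold change of −3.48 over 10 genes, with 8 of them lower and 2 higher without overlap, beside 16.9% and 26.2% of all genes. Slc2a1, Tfrc and Mfsd2a, which carry glucose, iron-bound transferrin and lysophospholipids, were called lower (log2 fold changes −2.82, −4.24 and −4.82), as were 0.182% of all genes. Of those that missed the threshold, Car4 had 8383 and 12149 counts against 1 and 962, Spock2 1401 and 4074 against 274 and 122, and Slc16a1 1163 and 1067 against 2 and 213. Cxcr4, the receptor for Cxcl12, was counted 0 and 1 times in the brain against 487 and 368 times in the dura mater (edgeR adjusted p = 0.466). The lists of other arterial, other venous and capillary genes and of regulators and gene families held 93 genes outside the 8, of which 67 were tested and 7 called, or 10.4%, beside 0.61% of all genes. These lists were chosen with earlier results of these data known, so the 10.4% cannot be read as an excess of calls.

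**Figure D5:**
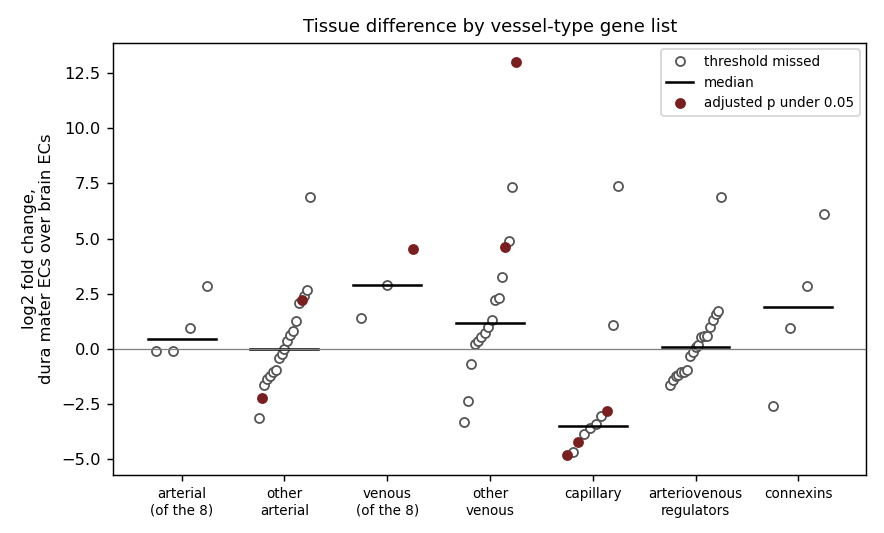
Log2 fold change of dura mater ECs over brain ECs for every tested gene of 7 lists, with filled points for an adjusted p under 0.05 in edgeR and bars for the median; a gene may stand in more than 1 list, and the connexins include Gja4 and Gja1. Medians are 0.43 and −0.01 for arterial genes, 2.89 and 1.15 for venous genes and −3.48 for capillary genes.

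Regulators of arterial or venous fate went in both directions. Of 22 such genes, 19 were tested and 0 were called, with 10 positive and 9 negative log2 fold changes and a median of 0.10. At an unadjusted p under 0.05 in edgeR, 3 were higher and 2 lower, beside 7.04% and 2.97% of all genes. In DESeq2, 1 was called higher and 0 lower, where 6.9% of all genes were called higher. Notch1 was counted 2842 and 203 times in brain ECs versus 6180 and 3711 times in dura mater ECs, and antisense transcripts cover 7.504% and 2.909% of its exon length. Of the transcription factors that answer Notch, Hey1 was higher in brain ECs without overlap (2605 and 1116 counts against 382 and 935) and Hes1 was lower there (2694 and 1848 against 4231 and 10546). Their edgeR adjusted p-values were 0.627 and 0.428.

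Of 20 connexin genes, 8 had 0 counts in each library and 6 had no more than 7 in any. Gjc1 (connexin 45), which joins smooth muscle and mural cells, was counted 2125 and 2619 times in brain ECs versus 358 and 506 times in dura mater ECs, opposite in direction to Gja1 and Gja4 (log2 fold change −2.57, edgeR adjusted p = 0.365). Among the Tec kinases, Tec was at 0 counts in each brain library, with 71 and 160 in dura mater ECs, and Btk and Txk had no more than 1 count in any library. Stmn1, the stathmin of dividing cells, was counted 2348 and 2490 times in brain ECs versus 706 and 769 times in dura mater ECs (log2 fold change −1.81, edgeR adjusted p = 0.466), beside −0.09 for Stmn2. Stmn3 had at most 6 counts and Stmn4 had 0 in each library. Nr2f1, the close relative of Nr2f2, had 7 and 203 counts against 450 and 301. Ackr3, a scavenger of Cxcl12, was the reverse of Ackr1, with 4501 and 1928 counts in brain ECs versus 589 and 1238 in those of the dura mater (log2 fold change −1.93, edgeR adjusted p = 0.466).

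Markers of other cells that express a member were read beside it. For Stmn2, the 7 neuron markers summed to 1.37 and 0.450 CPM in brain ECs versus 109 and 21.6 CPM in dura mater ECs. The 2 of them that were tested, Map2 (0, 3, 1196 and 255 counts, in the order brain replicates 1 and 2, dura mater replicates 1 and 2) and Tubb3 (10, 2, 111 and 77), were higher in dura mater ECs without overlap, as were 26.2% of all genes. Both missed the threshold in edgeR. Map2 was called higher in DESeq2, where 6.9% of all genes were. Syt1 had 2, 1, 170 and 0 counts and Snap25 0, 0, 0 and 20, while Rbfox3, Nefl and Stmn3 had at most 6 in any library. The part of neuronal RNA in the level of Stmn2 was not tested. For Gja1, the 8 fibroblast markers summed to 7.32 and 50.5 CPM in brain ECs versus 399 and 351 CPM in dura mater ECs. The 4 that were tested, Col1a1, Col1a2, Col3a1 and Dcn, were each higher without overlap, beside 26.2% of all genes. Of these, 0 were called in edgeR, and DESeq2 called 3 higher (Col1a1, Col1a2 and Dcn). Lum and Pdgfra had at most 4 counts. The 6 astrocyte markers summed to 0.547 and 0.525 CPM in brain ECs versus 164 and 9.90 CPM in dura mater ECs. In the same order, Slc1a3 had 1, 1, 915 and 74 counts, Slc1a2 1, 0, 863 and 87, Gfap 3, 0, 189 and 0 and Aldoc 3, 5, 256 and 2, whereas Aqp4 was at 0 and Aldh1l1 had at most 1. DESeq2 called Slc1a3 and Slc1a2 higher, and edgeR called neither. The fibroblast markers Dpt (0, 3, 434 and 0 counts) and Postn (0, 0, 437 and 0), like Gfap and Aldoc, were counted mainly in dura mater replicate 1. Of the fibroblast and astrocyte markers, those tested were higher in both dura mater libraries. Markers with few counts in brain ECs, such as Slc1a3, Slc1a2, Map2 and Tubb3, could pass the low-count filter only through both dura mater libraries. Their direction was therefore set by the filter and is a description only. The part of fibroblasts and astrocytes in the difference of Gja1 was not tested. The 5 osteoblast markers, whose cells also carry connexin 43, summed to 147 and 104 CPM against 165 and 134 CPM, nearly all of it from Alpl. Runx2 had 1, 0, 820 and 0 counts and Ibsp 0, 0, 181 and 11, with Bglap and Sp7 at 0, and the part of these cells in the level of Gja1 was not tested.

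For Nr2f2, the 6 lymphatic markers summed to 122 and 143 CPM in brain ECs versus 429 and 609 CPM in dura mater ECs. Flt4 gave nearly all of the brain sums, at 121.5 and 142.7 CPM, and 176 and 244 CPM of the dura mater sums. Pdpn overlapped between the tissues, with 3 and 7 counts in brain ECs versus 3 and 45 in dura mater ECs. Prox1, Lyve1, Ccl21a and Mmrn1 were at 0 in each brain library and from 125 to 3378 in the dura mater libraries. At 0 in brain ECs, these 4 could pass the low-count filter only through the dura mater libraries. DESeq2 called all 4 higher, as it did 6.9% of all genes. They moved with Nr2f2, and their part in its difference was not tested. For Lrg1, which neutrophils also make, the 8 leukocyte markers summed to 30.9 and 49.6 CPM against 50.3 and 29.6 CPM. Cd68, a macrophage gene, moved with Lrg1, with 4 and 3 counts against 550 and 441 (log2 fold change 6.45, edgeR adjusted p = 0.466). DESeq2 called it higher, as it did 6.9% of all genes. Cd68 too could pass the low-count filter only through the dura mater libraries. Csf1r had 4, 646, 28 and 9 counts, C1qa 436, 1, 2 and 25 and Itgam 1, 2, 87 and 0, and the other 4, Ptprc among them, had at most 9. The part of leukocytes in the difference of Lrg1 was not tested. For Ackr1, the 7 erythroid markers summed to 17855 and 25466 CPM in brain ECs versus 1483 and 755 CPM in dura mater ECs, opposite in direction to Ackr1. The 5 that were tested were each lower without overlap, beside 16.9% of all genes. Of them, 3 were called lower, as were 0.182% of all genes, and Slc4a1 was at 0 counts. The part of red cells in the level of Ackr1 was not tested. The 10 smooth muscle and pericyte markers summed to 688 and 1167 CPM against 1135 and 687 CPM, and the ranges of these sums overlapped. Of the 9 tested, 3 (Tagln, Kcnj8 and Notch3) were higher without overlap, beside 26.2% of all genes. Another 1 (Des) was lower without overlap, beside 16.9%. Their median log2 fold change was 1.23, and DESeq2 called Kcnj8 higher. The part of these cells in the difference of Gja1 was not tested.

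Genes whose pattern over the 4 libraries was most like that of a member were named by the mean absolute difference of log2 CPM after centring each gene on its own mean. For Stmn2 they were Srrt and Cd34, at 0.0237 and 0.0282. Cd34, a surface protein of ECs, was counted 24294 and 28291 times in brain ECs versus 23746 and 30565 times in dura mater ECs. For Gja4 they were Ctif (0.0273) and Sptlc1 (0.0751), for Bmx Yeats4 (0.0581) and Ddx3y (0.0619), and for Ackr1 Tomm20 (0.0622) and Dnttip2 (0.0859). The nearest genes lay further off for Lrg1 (Cwc27 at 0.116 and Pdxdc1 at 0.191), Gja1 (Ptpru at 0.149 and Stc1 at 0.168) and Nr2f2 (Mettl7a1 at 0.219 and Sertad1 at 0.222). Cwc27 stood at 0 counts in each brain library and at 35 and 61 in the dura mater ones, far below the counts of Lrg1. Its distance from Lrg1 therefore depends on the prior count. With 4 libraries and 9347 genes, such neighbours are a description only.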

How the data were processed

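Per the labels, RNA of sorted ECs was made into 3′ libraries with a QuantSeq kit. The deposited values are whole-number counts per gene symbol, made by the authors before deposit. The submitters' processing notes name mm10, Bowtie2 and edgeR, while the study's methods also name TopHat and Cufflinks. The counting step, annotation, strand and use of molecular identifiers are not given in the sources used here. Genes kept by filterByExpr (9347 of 23282 entries, 9622 of which were at 0 in each library) were scaled by TMM and tested with edgeR 4.0.16 by the quasi-likelihood test, two-sided, with tissue as the only term, a prior count of 2 and Benjamini-Hochberg adjustment over all genes tested. A gene was called at an adjusted p under 0.05. The SE of a log2 fold change is its size divided by the square root of the test's F statistic, and is approximate. The common biological coefficient of variation was 1.39. DESeq2 1.42.0, limma-voom (limma 3.58.1), other scalings, filters and dispersion estimates, a replicate block and leaving out each library were alternatives, in R 4.3.3. Same-numbered libraries did not deviate together (r = −0.0208 across genes), and no source says that the numbers pair them. The scripts were tested on simulated data.

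The members and lists were chosen with earlier results of these data known. Named genes were the 8 members and, from each companion list, the called genes and the 4 further tested genes of largest log2 fold change among those whose groups did not overlap. For each tested member, the 2 genes of nearest pattern were also named. List members named for having few or 0 counts were chosen after their values were seen. Positions and exon overlaps came from GENCODE M21 (GRCm38), in which 22230 entries matched, and promoters from RefSeq. A few list genes are not reported here by name.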

Additional observations from a re-analysis of the deposited data

How the results depend on the processing

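With 2 libraries a tissue and a wide spread between them, counts of calls depended on the analysis. Over all genes, 57 were called, beside 810 in DESeq2, 305 with the newer edgeR dispersion estimate, 326 with no low-count filter, 141 with at least 10 counts in every library and 224 with the replicate block, and from 80 (without dura mater replicate 1) to 740 (without brain replicate 1) when a library was left out. A library left alone is assumed to vary like the other tissue. The median log2 fold change of the genes of the main fit was 0.32 and 0.29 without brain replicates 1 and 2. It was −0.15 and −0.20 without dura mater replicates 1 and 2. Of the companion genes, 3 were called higher, beside 11 in DESeq2, 5 in limma-voom, 8 with the newer estimate, 7 with no filter, 6 with at least 10 counts and 7 with the replicate block, and from 3 to 13 with a library left out. For those called lower, 4 became 9, 10, 10, 8 and 8 in DESeq2, the newer estimate, no filter, at least 10 counts and the block, and 5 to 11 with a library left out. The replicate block changed the call of no member. Among 112 member values under 16 alternatives, 101 kept direction and side of the threshold, 5 newly passed and 6 turned sign.

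Lrg1 passed in each alternative. Nr2f2 passed in DESeq2 (2.79) and with the newer estimate (2.89), and ran from 2.27 to 3.75 with a library left out. In the same way Gja1 ran from 1.99 to 4.70, Ackr1 from 0.66 to 2.16 and Bmx from −0.79 to 0.29, with Bmx at 0.028 without brain replicate 1. Upper-quartile and pan-endothelial scaling, which moved the median of all genes from −0.01 to 0.13, turned Bmx to 0.017 and 0.074 and Stmn2 to 0.053 and 0.063. The share of calls that were higher was 70.2%, and 50.0% in limma-voom, 53.2% with at least 10 counts, 59.4% with the block and 53.8% without dura mater replicate 1. Without dura mater replicate 2 it was 44.3%, with 43 genes higher and 54 lower. The arterial share moved from 55.9% to 34.3% in brain ECs and from 17.9% to 7.08% in dura mater ECs without Stmn2 and Gja1, and to 65.8% and 48.7% without Lrg1, an alternative chosen after seeing the data. The causes of these changes were not tested.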
